A study of Mus musculus with 12 samples.

Results

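YAP and TAZ, the co-activators at the end of the Hippo pathway, were followed here together with their DNA-binding partners, their inhibitors and their target genes. The group held 10 genes, chosen by name from the 27319 genes in the table of aldosterone and vehicle: Yap1, Wwtr1 (which encodes TAZ), Tead1, Tead4, Lats2, Ajuba, Amotl2, Ankrd1, Ccn1 and Ccn2. All 10 were present in the tables of all 3 pairs of treatments. The cells were primary fibroblasts from the hindlimb muscles of wild-type C57 BL/10 mice taken 3 days after birth, kept in medium whose serum had been stripped of steroids with charcoal. They were treated for 48 hours with 1 µM aldosterone, an agonist of the mineralocorticoid receptor, with 1 µM spironolactone, an antagonist of that receptor, or with the DMSO vehicle. Poly(A) RNA was sequenced from 4 libraries per treatment. The labels describe 2 mice with 2 replicate plates per mouse and treatment, so the 4 libraries of a group were not 4 animals and the p-values below measure the spread between plates and mice together. Each library carries a sample number and a biological replicate number, and is called here by both, as in 1-2. The labels do not say which of these is the mouse.

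In the Hippo pathway, the kinases MST1 and MST2 with the scaffold SAV1 activate the kinases LATS1 and LATS2, and these phosphorylate YAP and TAZ, which then stay in the cytoplasm. When the kinases are less active, YAP and TAZ enter the nucleus, bind the TEAD transcription factors and turn on genes such as Ccn1, Ccn2 and Ankrd1. In fibroblasts this output is known to follow the stiffness of the matrix and the tension of the actin cytoskeleton, and it has been tied to fibrosis. Protein, phosphorylation and location in the cell set the activity of YAP and TAZ, and only RNA was measured here.

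The libraries held from 19136923 to 30219185 reads on genes. All 9 fibroblast markers were above 3 reads in all libraries, with a summed level of 5779.9 to 6236 RPKM (reads per kilobase of gene length, scaled to the size of the library) with vehicle and 4873 to 5401 with aldosterone. The summed level with aldosterone was thus below that with vehicle in all libraries. Col1a1 made up the largest part of it, at a mean of 3688 RPKM with vehicle and 2842 with aldosterone. Of the 9, Pdgfra (13.3 and 24.3) and Ly6a (370 and 727) had higher means with aldosterone, and all others had lower ones. The macrophage list summed to 1.49 to 2.45 RPKM with vehicle and 1.60 to 2.00 with aldosterone, the myogenic list to 0.919 to 1.69 and 0.731 to 1.39, and the Schwann cell list to 6.07 to 7.86 and 7.65 to 11.5. The macrophage marker Itgam was not in the tables, Adgre1 and Tyrobp were at 0 in all vehicle libraries, and Ptprc was at 0 in all aldosterone libraries. Cd68, Csf1r and Mrc1 of the same list were above 3 reads in all libraries of both groups. Cd68 had the highest mean of that list, at 0.806 RPKM with vehicle and 0.956 with aldosterone. The satellite cell marker Pax7 was at 0 in all aldosterone libraries, and Myf5 and Ckm were at 0 in all libraries of both groups. Des made up the largest part of the myogenic sum, at a mean of 1.11 RPKM with vehicle and 0.817 with aldosterone. It was above 3 reads in all libraries of both groups. The endothelial list summed to 4.15 to 4.56 RPKM with vehicle and 5.36 to 5.76 with aldosterone, and its member Kdr was called higher (log2 fold change 1.88, limma adjusted p = 0.00183, and up to 0.0921 without 1 library, which ends the call). The other 5 genes of that list did not pass. Among them Tek made up the largest part of the sum, at a mean of 3.996 RPKM with vehicle and 4.575 with aldosterone. Cdh5 (0.0953 and 0.149) and Emcn (0.0210 and 0.0346) also had higher means with aldosterone. The defining marker Pecam1 (0.0446 and 0.0189) and Cldn5 (0.00813 and 0.00584) had lower ones. Emcn, Pecam1 and Cldn5 rested on at most 12 reads in a library. The part of these shifts in the results below was not tested. In bulk RNA, fewer cells of a type and less RNA per cell cannot be told apart.

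In the vehicle-treated fibroblasts, the levels of the 10 genes per length spanned a wide range. The matricellular proteins CCN1 (CYR61) and CCN2 (connective tissue growth factor) had the most abundant transcripts, at 355 ± 21.4 RPKM for Ccn1 and 239.9 ± 22.3 for Ccn2 (mean ± SD, n = 4 libraries here and below). Amotl2, which encodes a scaffold that binds YAP and holds it at junctions and actin, followed at 117 ± 10.4 RPKM. Wwtr1 stood at 35.7 ± 0.623 RPKM and Yap1 at 18.7 ± 0.354, so per length the transcript of TAZ was the higher in every library. This order rests on the gene lengths used, 4779 bases for Wwtr1 and 9257 for Yap1. Their mean normalized counts with vehicle were close, at 4024 and 4090. Tead1 at 22.6 ± 1.54 RPKM and Ajuba at 21.9 ± 3.39 lay between Wwtr1 and Yap1 in RPKM. The libraries of Tead1 and Ajuba overlapped. The Ajuba libraries also overlapped those of Yap1. Lats2 stood at 11.2 ± 0.534 RPKM, Tead4 at 2.57 ± 0.307 and Ankrd1, known as a target in stiff or stretched cells, last at 0.716 ± 0.279. The remaining neighbours in this order did not overlap. Ankrd1 rested on between 17 and 105 reads in a library, so its values carry the largest relative counting error of the 10.

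**Figure D1:**
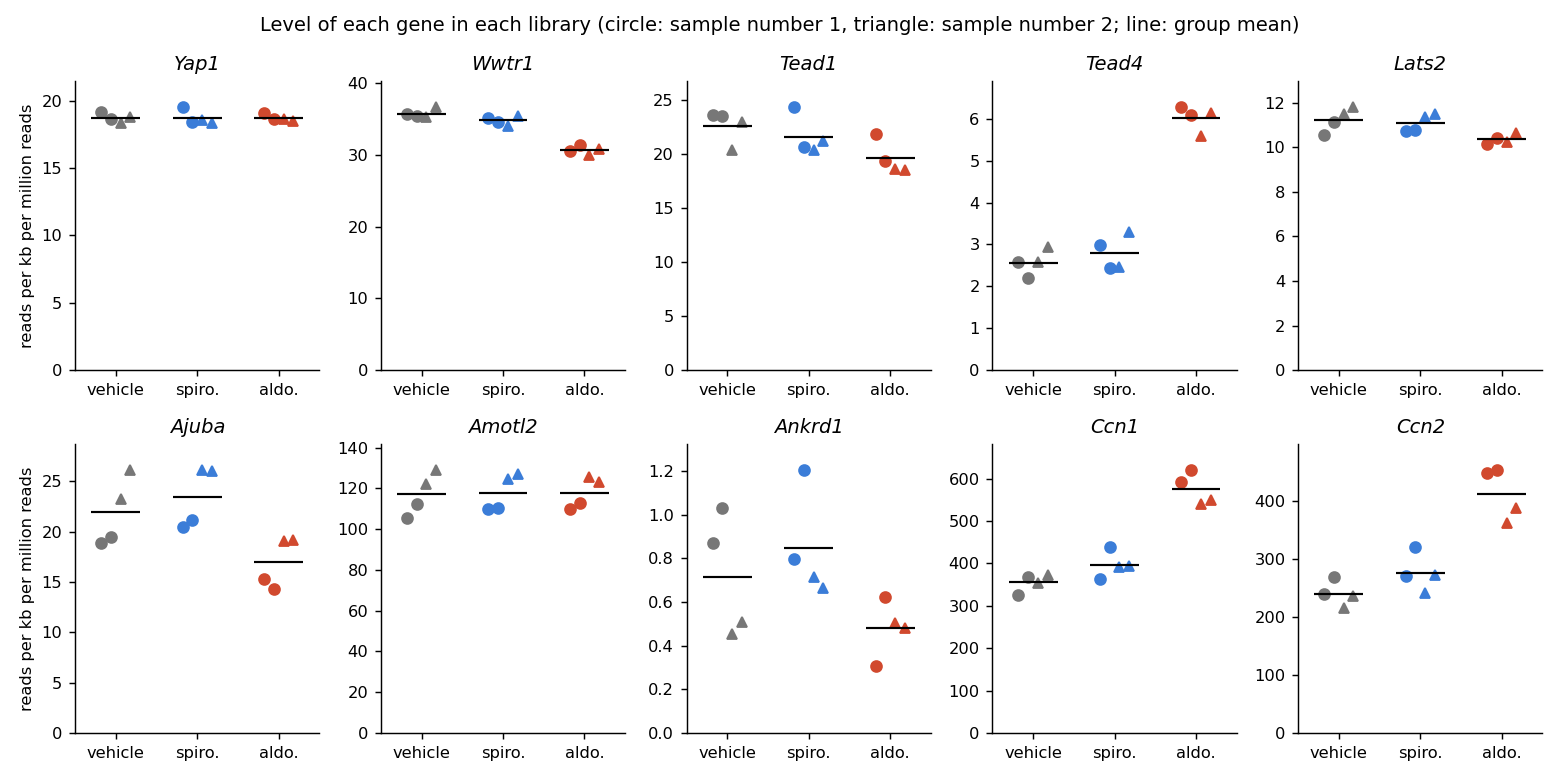
Level of each of the 10 genes in each of the 12 libraries, in RPKM on linear axes that start at 0. Circles are libraries of sample number 1, triangles those of sample number 2, and lines are means of 4 libraries. The aldosterone libraries of Tead4, Ccn1 and Ccn2 lie above all others, those of Wwtr1 lie below all others, and Ajuba is higher in sample number 2 than in 1 within each treatment.

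TEAD factors bind DNA at the motif GGAATG, and promoter sequences show where these letters lie in the genes that respond to YAP and TAZ. The RefSeq promoter table used here (build GRCm38.p6, 300 bases per window, from 250 before to 50 after the start of transcription) held 7 of the 10 genes. Tead1, Tead4 and Ccn2 were not among them. GGAATG on either strand was found in a window of all 7 genes, while 16.6% of the 27025 genes in the table had it. Ajuba and Ankrd1 had 2 copies in a window, as did 1.57% of genes. In Lats2 the copy began 5 bases after the start in 1 of 2 windows, and in Yap1 and Wwtr1 it lay before the start, beginning 141 bases before it in Yap1 and 136 or 170 bases before it in Wwtr1, depending on the start used. All motifs were searched on both strands. None of the 7 had the AP-1 motif TGANTCA (in 8.97% of genes), the CArG box bound by SRF (1.81%) or the full palindrome of steroid receptors, AGAACA and TGTTCT with 3 bases between (0.0111%). The single steroid element AGAACA, on either strand, was found in Ajuba alone of the 7, beginning 221 bases before the start, and in 21.3% of genes. In the printed windows GGAATG overlapped no copy of the other motifs. A match to these letters is a description, not a bound site, and the absence of a match says only that the letters are not in the window. In the test against vehicle below, Ccn1 was called higher and Ajuba lower, the latter a call lost when any 1 library was left out. Amotl2 and Ankrd1 did not pass. The 250 bases before the start are shown for these 4 targets, with GGAATG, or its reverse complement CATTCC, in capitals. They are Ccn1 at chr3:145649986-145650235 (- strand), Ajuba at chr14:54577662-54577911 (- strand), Amotl2 at chr9:102717554-102717803 (+ strand) and Ankrd1 at chr19:36119845-36120094 (- strand), each 5′ to 3′ along the gene.
Ccn1: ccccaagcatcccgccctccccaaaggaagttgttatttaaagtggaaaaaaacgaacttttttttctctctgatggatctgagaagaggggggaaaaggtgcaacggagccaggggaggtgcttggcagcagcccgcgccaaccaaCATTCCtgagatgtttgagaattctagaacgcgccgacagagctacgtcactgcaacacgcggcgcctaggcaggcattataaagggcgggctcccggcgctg
Ajuba: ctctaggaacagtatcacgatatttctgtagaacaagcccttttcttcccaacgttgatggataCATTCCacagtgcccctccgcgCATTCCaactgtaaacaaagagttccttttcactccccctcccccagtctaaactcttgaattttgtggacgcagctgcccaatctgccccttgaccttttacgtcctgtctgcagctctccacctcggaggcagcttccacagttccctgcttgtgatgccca
Amotl2: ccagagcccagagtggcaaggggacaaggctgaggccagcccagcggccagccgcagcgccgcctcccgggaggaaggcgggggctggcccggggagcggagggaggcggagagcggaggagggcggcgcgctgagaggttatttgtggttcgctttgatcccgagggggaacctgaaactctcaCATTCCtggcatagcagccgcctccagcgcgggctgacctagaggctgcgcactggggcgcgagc
Ankrd1: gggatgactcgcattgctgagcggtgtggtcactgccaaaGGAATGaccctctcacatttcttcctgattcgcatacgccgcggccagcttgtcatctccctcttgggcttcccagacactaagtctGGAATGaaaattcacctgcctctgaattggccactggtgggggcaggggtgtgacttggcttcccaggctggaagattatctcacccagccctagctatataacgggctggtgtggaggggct

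The comparison of aldosterone with vehicle asks what the agonist did to these genes. Aldosterone raised Tead4, Ccn2 and Ccn1 and lowered Wwtr1 and Ajuba, while the other 5 genes did not pass the test. Tead4 was 2.41-fold higher, Ccn2 1.77-fold and Ccn1 1.67-fold as ratios of mean normalized counts (reads over the library's size factor). The test was limma on log2(normalized count + 1) over all genes of the table, with Benjamini-Hochberg adjustment, and genes with an adjusted p of at most 0.05 were called. By this rule 5.68% of the 27319 genes were called higher and 4.74% lower, against 3 and 2 of the 10 genes here. These shares count genes with few reads too, while all 10 genes averaged at least 10 normalized counts. Among the 15416 genes with enough reads for edgeR, that test called 3055, and 4 of the 10. With a log2 change of 1 or more in size required as well, 1.4% of genes were higher and 0.666% lower, and Tead4 alone of the 10 passed. The median log2 fold change of the 10 genes was -0.02, and that of all genes was -0.01. With the plates of a sample number averaged, which leaves 2 values per group, Tead4, Ccn1 and Ccn2 stayed called (adjusted p = 0.00175, 0.00943 and 0.019) and Wwtr1 and Ajuba did not (0.322 and 0.353).

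Of the co-activators, Yap1 (ENSMUSG00000053110, chr9:7932000-8004597, build mm39 as for all gene positions below) had normalized counts of 4268, 4074, 3966 and 4052 in vehicle libraries 1-1, 1-2, 2-1 and 2-2, an order used throughout. The aldosterone libraries had 4365, 4266, 4147 and 4062. The groups overlapped, and the log2 fold change was 0.04 (95% interval -0.07 to 0.15, limma adjusted p = 0.703). Wwtr1 (ENSMUSG00000027803, chr3:57363070-57483331) had 4089.8, 3993, 3936 and 4079 with vehicle and 3603, 3698, 3443 and 3491 with aldosterone. All 4 aldosterone libraries were below the lowest vehicle library. The drop was small, with a log2 fold change of -0.18 (SE 0.050, limma adjusted p = 0.0301). On the scale of RPKM, Yap1 was at 0.525 ± 0.0110 of the level of Wwtr1 with vehicle, 0.538 ± 0.0165 with spironolactone and 0.611 ± 0.0149 with aldosterone.

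Tead4 (ENSMUSG00000030353, chr6:128201251-128277786, minus strand), one of the 4 TEAD genes, had the largest log2 fold change of the 10 genes. Its normalized counts were 222, 186, 216 and 247 in the vehicle libraries and 558, 541, 482 and 523 in the aldosterone libraries. The lowest aldosterone library was well above the highest vehicle library. The means were 218 ± 24.9 and 526 ± 32.9, with a log2 fold change of 1.27 (SE 0.095, limma adjusted p = 1.02e-07). A two-sided exact permutation test of the 4 against 4 libraries gave p = 0.0286 for Tead4, Ccn1, Ccn2 and Wwtr1, whose groups did not overlap. This is the smallest p that the design allows, and any gene whose groups do not overlap gets it. The test treats the libraries as independent, though those of a sample number deviated together. Tead1 (ENSMUSG00000055320, chr7:112278525-112506014), the most abundant TEAD, had 7680.5, 7541, 6439 and 7258 with vehicle and 7332, 6487, 6047 and 5961 with aldosterone. These groups overlapped, and the log2 fold change of -0.16 did not pass the test (adjusted p = 0.198). In the fit that took the sample number as a replicate block it did (limma adjusted p = 0.0075). That fit called 8.68% of all genes higher and 8.02% lower, and 3 of the 10 genes in each direction.

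The other 2 members of the family also moved, in opposite directions. Tead2 fell by 0.36 on the log2 scale (SE 0.060, limma adjusted p = 5.96e-04) and Tead3 rose by 0.32 (SE 0.074, adjusted p = 0.00788, and up to 0.0987 without 1 library, which ends the call). The summed RPKM of the 4 genes was 45.7 ± 1.80 with vehicle, 45.4 ± 3.03 with spironolactone and 45.4 ± 2.16 with aldosterone. The sums thus differed by less than the spread between libraries. Within the sum, the share of Tead4 was 5.63% ± 0.698 with vehicle, 6.16% ± 0.835 with spironolactone and 13.3% ± 0.776 with aldosterone. Tead1 made up 49.4% ± 1.53 with vehicle and 43.1% ± 1.74 with aldosterone, and so remained the main TEAD transcript. Tead2 went from 25.0% to 19.0% and Tead3 from 20.0% to 24.6%. These shares describe RNA and were not tested.

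**Figure D2:**
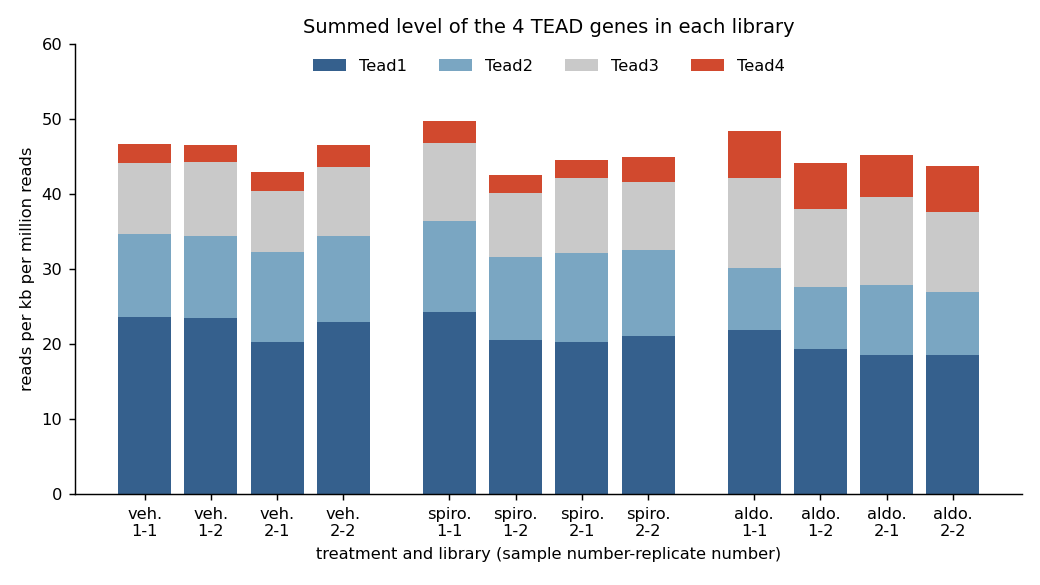
Summed level of Tead1, Tead2, Tead3 and Tead4 in each of the 12 libraries, in RPKM, as stacked bars from 0. The sum lies between 42.6 and 49.7 in all libraries, and the Tead4 segment is taller in the 4 aldosterone libraries than in the 8 others.

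Among the inhibitors and adaptors of the pathway, Lats2 (ENSMUSG00000021959, chr14:57927119-57995845), a kinase that phosphorylates YAP and TAZ and is itself a target of YAP, had 1765, 1835, 1869.6 and 1915 with vehicle and 1749, 1790.2, 1707 and 1757 with aldosterone. The groups overlapped slightly, and the log2 fold change of -0.08 did not pass the test (95% interval -0.19 to 0.04, limma adjusted p = 0.479). Amotl2 (ENSMUSG00000032531, chr9:102593871-102610617) had 15954, 16704, 17968 and 18903 with vehicle and 17115, 17494, 18961 and 18334 with aldosterone. Within each treatment the libraries of sample number 2 were higher than those of sample number 1, and the log2 fold change was 0.05 (95% interval -0.08 to 0.19, limma adjusted p = 0.71). Ajuba (ENSMUSG00000022178, chr14:54804929-54815015) encodes a LIM protein that restrains the LATS kinases. It had 1657, 1676, 1981 and 2219.9 with vehicle and 1378, 1287, 1669 and 1662 with aldosterone. The drop stood within each sample number, where the groups did not overlap, but the levels of the numbers differed so that the groups overlapped as a whole. The log2 fold change was -0.33 (SE 0.10, limma adjusted p = 0.0461). This call was lost when any 1 of the 8 libraries was left out (adjusted p = 0.137 to 0.301) and with edgeR (adjusted p = 0.0568). It held with DESeq2 (adjusted p = 0.0249) and with the replicate block (limma adjusted p = 5.59e-06).

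The secreted targets rose together. Ccn2 (ENSMUSG00000019997, chr10:24471340-24474581), a matricellular protein long used as a marker of fibrosis, had 16486, 18170.2, 14327 and 15778 normalized counts with vehicle and 31659, 31959.8, 24787 and 26270.0 with aldosterone. Ccn1 (ENSMUSG00000028195, chr3:145352731-145355736), its relative that binds integrins, had 15798, 17604, 16652 and 17543 with vehicle and 29553, 30899, 26192 and 26276 with aldosterone. In both genes the groups were far apart. Ccn2 averaged 16190.1 ± 1597 and 28669 ± 3678, with a log2 fold change of 0.82 (SE 0.089, limma adjusted p = 8.15e-06). Ccn1 averaged 16899 ± 854 and 28230.0 ± 2369.8, with a log2 fold change of 0.74 (SE 0.067, limma adjusted p = 1.18e-06). Neither reached a log2 fold change of 1. Ankrd1 (ENSMUSG00000024803, chr19:36089361-36097499), which encodes a nuclear ankyrin repeat protein of stretched muscle, did not pass the test. It had 60.4, 70.3, 30.5 and 34.4 normalized counts with vehicle and 22.0, 44.3, 35.0 and 33.0 with aldosterone. The vehicle libraries of sample number 1 were the highest and the groups overlapped. Its log2 fold change was -0.48, with a wide 95% interval of -1.12 to 0.15 (limma adjusted p = 0.414).

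**Figure D3:**
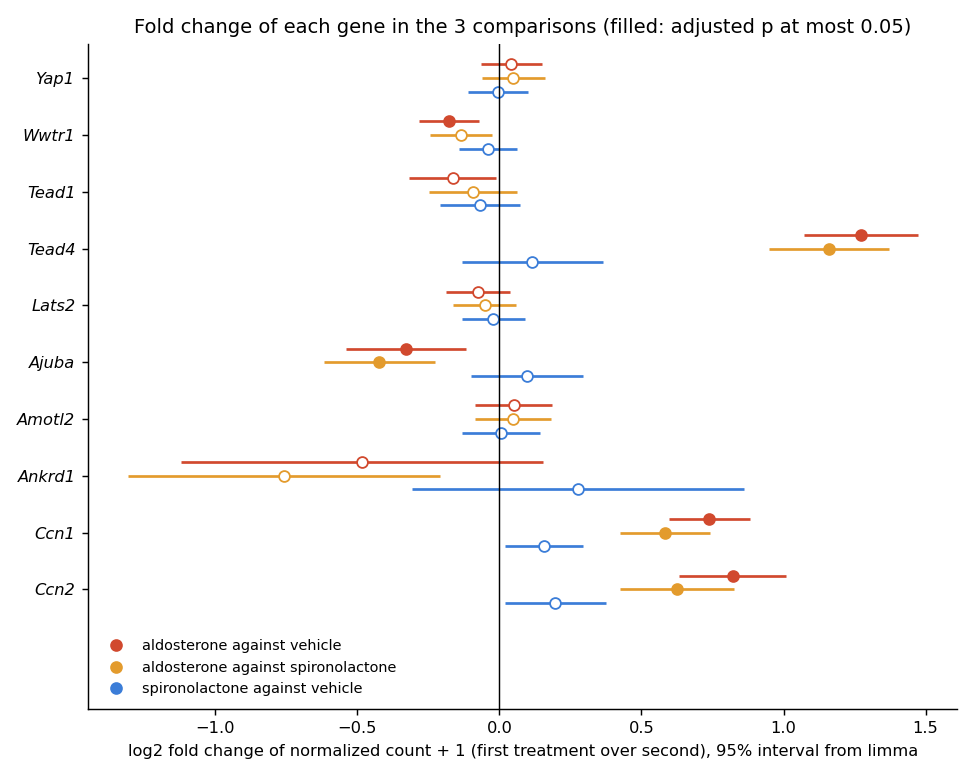
Log2 fold change of each of the 10 genes in the 3 comparisons of treatments, with 95% intervals from limma. Filled points have an adjusted p of at most 0.05. Tead4, Ccn1 and Ccn2 are filled to the right of 0 in both comparisons with aldosterone, Ajuba is filled to the left in both, Wwtr1 only against vehicle, and no point is filled for spironolactone against vehicle.

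The response was compared between the sample numbers, each with 2 aldosterone and 2 vehicle libraries. Tead4 rose by 1.43 on the log2 scale in sample number 1 and by 1.12 in 2, Ccn2 by 0.88 and 0.76, and Ccn1 by 0.86 and 0.62. These 3 genes thus rose in both. The log2 change of Ajuba was -0.32 in sample number 1 and -0.33 in 2, and that of Wwtr1 was -0.15 and -0.21. Ankrd1 differed the most, at -1.04 in sample number 1 and 0.07 in 2. By limma's interaction term, 0 of the 10 genes differed between the numbers after adjustment over all genes (smallest adjusted p = 0.895), with 2 genes, Ccn1 and Ankrd1, at an unadjusted p under 0.05 (0.0112 and 0.0427). Of all 27319 genes 4 passed after adjustment and 1356 had an unadjusted p under 0.05.

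Aldosterone was also compared with spironolactone, which uses the same aldosterone libraries and so is no independent repeat. Tead4, Ccn2 and Ccn1 were higher with aldosterone and Ajuba was lower, against 4.93% of the 27631 genes called higher and 3.96% lower. With a log2 change of 1 or more as well, Tead4 alone of the 10 passed, against 1.38% of genes higher and 0.521% lower. The spironolactone libraries had 261, 216, 212 and 284 normalized counts of Tead4, and the aldosterone libraries, scaled for this table, had 575, 556, 495 and 537. The groups were far apart, with a log2 fold change of 1.16 (SE 0.10, limma adjusted p = 3.65e-07). Ccn2 averaged 19101 ± 2445 with spironolactone and 29482 ± 3806 with aldosterone (log2 fold change 0.63, limma adjusted p = 2.10e-04, or 0.105 with plates averaged). Ccn1 averaged 19376 ± 1689 and 29030.0 ± 2453 (log2 fold change 0.58, limma adjusted p = 3.49e-05). In both, each aldosterone library was above each spironolactone library.

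Ajuba had 1809, 1895, 2287 and 2271 normalized counts with spironolactone and 1420.2, 1323, 1715 and 1707 with aldosterone, groups that did not overlap here. Its log2 fold change was -0.42 (SE 0.093, limma adjusted p = 0.00591), and the call was lost when any 1 of the 8 libraries was left out (adjusted p = 0.0553 to 0.144). It held with DESeq2 (9.06e-04), edgeR (0.0123) and the replicate block (1.43e-08), all adjusted p. Wwtr1 and Ankrd1 did not pass. Wwtr1 averaged 4018 ± 75.2 with spironolactone and 3659 ± 119 with aldosterone (log2 fold change -0.14, limma adjusted p = 0.132, and 0.0262 with the replicate block). Ankrd1 had 55.8, 85.2, 49.7 and 45.9 with spironolactone and 22.6, 45.5, 36.0 and 33.9 with aldosterone. All spironolactone libraries were above the highest aldosterone library, though only just (log2 fold change -0.76, limma adjusted p = 0.0899, and 0.0299 with the replicate block). The replicate block therefore called 3 genes lower where the test without it called 1. Over all genes it called 7.58% higher and 6.8% lower. The 4 remaining genes had log2 fold changes of -0.09 (Tead1) to 0.05 (Yap1) and did not pass.

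Spironolactone was compared with vehicle to ask whether the antagonist acted in medium without steroids. Of the 10 genes, 0 were called in either direction by limma, DESeq2 or edgeR, and 2, Ccn1 and Ccn2, had an unadjusted limma p under 0.05. Over all 27598 genes limma called 0% higher and 0% lower, with 1251 at an unadjusted p under 0.05, edgeR called 0 and DESeq2 called 13. Ccn2 averaged 16289 ± 1609.7 normalized counts with vehicle and 18719 ± 2398 with spironolactone, with overlapping libraries (log2 fold change 0.20, 95% interval 0.02 to 0.37, limma adjusted p = 0.934). In the fit with the replicate block the adjusted p of Ccn2 was 0.0445, which made it the 1 gene of the 10 called in that fit, against 0.228% of all genes higher and 0.123% lower. With plates averaged Ccn2 was not called (adjusted p = 0.999). Ccn1 averaged 17003 ± 879.7 and 18989 ± 1665 (log2 fold change 0.16, 95% interval 0.02 to 0.29, adjusted p = 0.934). The intervals were narrow for Yap1 (-0.11 to 0.10), Wwtr1 (-0.14 to 0.06), Lats2 (-0.13 to 0.09) and Amotl2 (-0.13 to 0.14). They were wider for Tead1 (-0.21 to 0.07), Ajuba (-0.10 to 0.30) and Tead4 (-0.13 to 0.36), and widest for Ankrd1 (-0.31 to 0.86).

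Other target genes gave a mixed picture with aldosterone. Of 17 further genes of a known YAP and TAZ signature, 4 rose, 1 fell and 12 did not pass the test against vehicle, with a median log2 fold change of 0.05 beside -0.01 over all genes. That test called 5.68% of all genes higher and 4.74% lower. Genes with few reads count in these shares, while all 17 averaged at least 10 normalized counts. With edgeR, 3055 of the 15416 genes with enough reads were called. Igfbp3, a secreted carrier of insulin-like growth factors, rose the most, from 854 ± 90.9 to 1724 ± 63.0 normalized counts (log2 fold change 1.02, limma adjusted p = 7.34e-08). Myof, which encodes the membrane repair protein myoferlin, had a log2 fold change of 0.46 (adjusted p = 4.68e-04) and Axl, a receptor tyrosine kinase, one of 0.38 (adjusted p = 3.36e-04). Dock5, which encodes an activator of the GTPase RAC, rose by 0.38 (adjusted p = 0.0437), and the stress gene Gadd45a fell by 0.60 (adjusted p = 0.0294). Dock5 and Gadd45a overlapped between groups and lost the call without 1 library (adjusted p up to 0.295 and 0.27). With the replicate block the counts were 5 higher and 5 lower, where 8.68% of all genes were higher and 8.02% lower.

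Among 37 kinases, adaptors and other TEAD or VGLL genes of the pathway, 4 rose, 7 fell and 26 did not pass. The median log2 fold change was -0.09, beside -0.01 over all genes. Over all genes 5.68% were called higher and 4.74% lower. These shares count genes with few reads too, while 36 of the 37 averaged at least 10 normalized counts. For comparison, edgeR called 3055 of the 15416 genes with enough reads. Those that rose were Sav1, the scaffold of the MST kinases (from 1344 ± 67.8 to 2031 ± 93.4 normalized counts, log2 fold change 0.60, limma adjusted p = 2.78e-06), Limd1, a LIM protein related to Ajuba (from 1421 ± 121 to 2033 ± 24.9, 0.52, adjusted p = 2.98e-05), Vgll3, a TEAD cofactor (0.34, adjusted p = 0.00252), and Tead3. Limd1 and Ajuba thus moved in opposite directions. The 5 largest called decreases were in the protocadherins Fat4 (-0.45, adjusted p = 0.0304) and Fat1 (-0.37, 0.00241), the kinase Map4k2 (-0.40, 0.0166), Tead2 (-0.36, 5.96e-04) and the kinase Lats1 (-0.21, 0.0192). Sav1, Limd1, Tead2 and Strn3 (named after its values were seen) kept the call whichever library was left out, and 7 did not, with adjusted p up to 0.292 for Fat4. The replicate block called 5 higher and 12 lower, beside 8.68% and 8.02% of all genes. Beside Lats1, Lats2 went from 0.813 ± 0.0224 of its RPKM with vehicle to 0.894 ± 0.0321 with aldosterone. With spironolactone it was 0.845 ± 0.0511, and its libraries overlapped those of aldosterone.

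SRF and its cofactors MRTF-A and MRTF-B, which answer to actin and share targets with YAP, gave a list of 14 genes. Of these 1 rose, 2 fell and 11 did not pass, with a median log2 fold change of -0.20 beside -0.01 over all genes. The same test called 5.68% of all genes higher and 4.74% lower, genes with few reads included. All 14 averaged at least 10 normalized counts, and edgeR called 3055 of the 15416 genes with enough reads. Mrtfa rose by 0.29 in log2 terms (limma adjusted p = 0.0183), Srf fell by 0.26 (adjusted p = 0.0167) and Tpm1, which encodes an actin-binding tropomyosin, fell by 0.50 (adjusted p = 1.03e-05). Mrtfa and Srf lost the call without 1 library (adjusted p up to 0.155 and 0.105). With the replicate block 1 gene was higher and 9 were lower, again beside 8.68% and 8.02% of all genes. Acta2, the smooth muscle actin of myofibroblasts, averaged 64159 ± 12048 with vehicle and 51415 ± 11805 with aldosterone (log2 fold change -0.33, adjusted p = 0.204, and 1.75e-07 with the replicate block). Acta2 was named after its values were seen.

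**Figure D4:**
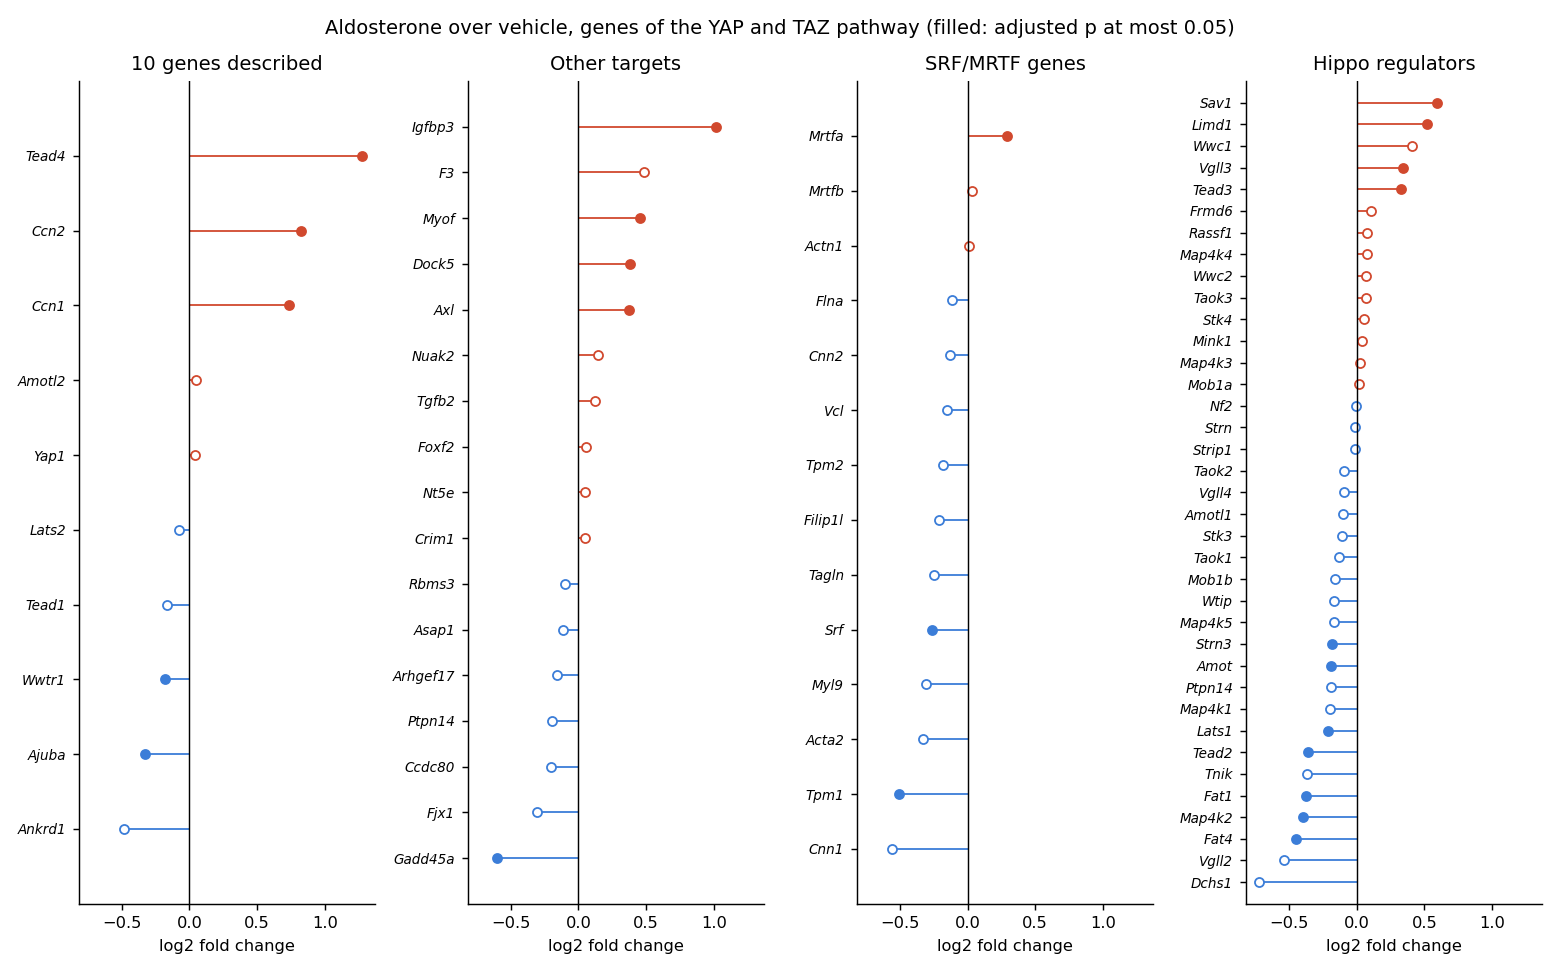
Log2 fold change with aldosterone over vehicle for the 10 genes, 17 other targets, 14 SRF and MRTF genes and 37 Hippo regulators, ordered by size within each list. Filled points have an adjusted p of at most 0.05, red is above 0 and blue below. The filled targets lie mostly to the right of 0 and the filled Hippo regulators on both sides.

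The genes most like Tead4, Ccn2 and Ccn1 over the 12 libraries were found by the root mean square difference of log2 levels after each gene's mean was removed, among 12298 genes that averaged 50 reads or more. Nearest to Tead4 were Ptchd4 (0.12), Ankrd29 (0.12) and Stim1, a calcium sensor of the endoplasmic reticulum (0.13), beside an SD of Tead4 itself of 0.58. Nearest to Ccn2 were the chromatin protein gene Hmga2 (0.07), Ccn1 (0.11) and the complement protease gene Masp1 (0.11), beside an SD of 0.37. Nearest to Ccn1 were Ampd3 (0.08), Maoa (0.10) and Cryab (0.10), beside an SD of 0.32. Ccn2 thus had Ccn1 as its second nearest gene, while Ccn2 had rank 9 among the genes nearest to Ccn1 (0.11). The libraries share treatments, so these distances are a description.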

How the data were processed

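Poly(A) RNA of 12 fibroblast libraries, 4 per treatment, was sequenced. By the submitters' processing notes, HISAT2 (2.0.5), featureCounts (1.5.0-p3) and build mm39 were used, while the study's methods name mm9, and use of the strand is not given in the sources used here. The authors deposited, for each pair of treatments, signal values, that is gene counts over one size factor per library, set separately in each table. The authors' own log2 fold changes, p-values and group means, made with DESeq2 and deposited in the same tables, were not used. In each column all values (100%) were multiples of one smallest step (tolerance 0.01), which gave the reads back. For a pair of columns whose step was close to 1, the reads came from the library's other table. These reads served RPKM levels, DESeq2 and edgeR.

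The main test was limma (3.58.1, R 4.3.3) with a trend on log2(value + 1). The 10 genes were given by name, and they and the lists were chosen with earlier results of these data known. Of each pathway list, genes with an adjusted p of at most 0.05 against vehicle were named, up to 5 in each direction, and 3 nearest profiles for 3 genes. The CCN relatives were added after values were seen. Samples with the same sample number deviated together (r = 0.23 to 0.50 over 24 pairs of libraries), so the number was used as a replicate block, as an alternative. Other alternatives were DESeq2 (1.42.0), edgeR (4.0.16) with TMM, a pseudocount of 0.5, a filter on a mean of 10, upper-quartile scaling and leaving out each library. Averaging plates was chosen after seeing the data. The tests were run on simulated data with planted changes. That check required only that the larger planted changes be found, and it set no limit on false calls. RefSeq promoters were of GRCm38.p6, another build than the tables, and coordinates were not mixed.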

Additional observations from a re-analysis of the deposited data

Results flagged for a closer look

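Among 30 groups of 4 libraries tested (10 genes in 3 treatments), Wwtr1 with spironolactone held a library far from the others. Library 2-1 had 3830.2 normalized counts and the nearest had 3966, a gap of 0.878 of the range of the group, above the critical value of 0.829. Chance flags about 1 group in 20. The spironolactone libraries of Wwtr1 lay close together (SD 72.0), and its comparisons with spironolactone kept their direction without this library.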

How the results depend on the processing

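Against vehicle, the rise of Tead4, Ccn1 and Ccn2 stayed called in all 15 alternatives. Of the genes lower with aldosterone than vehicle, 2 in the test as reported, 1 was called with edgeR, the filter or upper-quartile scaling, 0 with plates averaged and 1 when any library was left out. Of those lower than with spironolactone, 1 as reported, 3 were called with DESeq2 or the replicate block, 0 with plates averaged and 0 without any 1 library. The replicate block called 1 gene higher with spironolactone than vehicle. Of other targets, plates averaged gave 1 higher and 0 lower, the replicate block 5 lower, and leaving out a library 0 to 1 lower. Of Hippo regulators, plates averaged gave 2 higher and 0 lower, the replicate block 12 lower, and leaving out a library 2 to 4 higher and 2 to 5 lower. Averaging leaves fewer values per group, and the cause of the other shifts was not tested. Direction turned for the near-zero spironolactone changes alone. Yap1 went from -0.005 to 0.011 with upper-quartile scaling and lay between -0.0262 and 0.0145 without 1 library, and Amotl2 went from 0.0052 to between -0.0361 and 0.0467. Fold changes of Ankrd1 are limited by its low reads.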

Other observations

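Ccn1 and Ccn2 rose with aldosterone, and the 4 other genes of the CCN family of matricellular proteins were looked at after values were seen. None of the 4 was called higher and 2 were called lower, beside 5.68% and 4.74% of all genes. Ccn4 fell from 5839.9 ± 766 to 3060.3 ± 424 normalized counts (log2 fold change -0.93, limma adjusted p = 5.49e-06) and Ccn3 from 9227 ± 1371 to 5951 ± 1064 (-0.64, adjusted p = 0.00125, and up to 0.0785 without 1 library). Ccn5 averaged 15862 ± 1179 and 13826 ± 1467 (-0.20, adjusted p = 0.12, and 2.20e-04 with the replicate block), and Ccn6 was near the floor at 7.26 ± 4.42 and 3.68 ± 2.45. Against spironolactone, 3 of these 4 genes were lower with aldosterone and 0 were higher, beside 3.96% and 4.93% of all genes.

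Among the fibroblast markers, Pdgfra rose from 3149 ± 206 to 5912 ± 312 normalized counts with aldosterone (log2 fold change 0.91, limma adjusted p = 2.93e-08), Ly6a rose from 10521 ± 1626 to 21276 ± 2049 (1.02, adjusted p = 1.65e-06) and Col3a1 fell from 114485 ± 3634 to 85219.5 ± 2451 (-0.43, adjusted p = 4.42e-04). The other 6 markers on this list did not pass the test as reported. It called 2 of the 9 higher and 1 lower, beside 5.68% and 4.74% of all genes. With the replicate block those 6 were called lower, and 2 of the 9 were higher and 7 lower beside 8.68% and 8.02% of all genes.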
